A study of Mus musculus with 6 samples.

Results

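The urea cycle and the handling of ammonia around it were represented by a list of 10 genes: Nags, Cps1, Otc, Ass1, Asl, Arg1, Slc25a15, Slc25a13, Glud1 and Gls2. Of these, 9 had at least 1 probe set that the platform annotation assigned to that gene alone, with 13 such probe sets among the 34945 of that kind on the array. Gls2, the liver-type glutaminase, was not analysed here. Where a gene had several probe sets, the one with the highest mean over the 6 arrays stood for the gene and the others are given beside it. All 9 genes lay above the filter on dim probe sets and were read from a fit over 12705 genes.

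Liver RNA came from 3 Retnla-Tg mice (Tg 5, Tg 6 and Tg 7) and 3 Retnla-non-Tg mice (non-Tg 1, non-Tg 2 and non-Tg 3), with 1 Affymetrix MG 430 2.0 array for each animal. All 6 were males on the C57BL6/J background, 3 months old, and both groups had eaten for 4 weeks a diet of 21% fat and 0.15% cholesterol that began at 8 weeks of age. By the labels the groups differed in the Retnla transgene, which encodes the resistin-like protein RELMα. Whether they also differed elsewhere in the genome was not tested. Which promoter drove the transgene, how many founder lines there were and how the mice were related was not given in the labels used here, so the p-values measure the spread between these animals alone. Retnla checked the labels: its log2 signal was 16.04, 15.91 and 16.04 in Tg 5, Tg 6 and Tg 7, and 6.03, 7.41 and 6.48 in non-Tg 1, non-Tg 2 and non-Tg 3. Albumin, the defining hepatocyte transcript, was bright on every array, with Alb between 16.20 and 16.39.

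The urea cycle turns ammonia from amino acid breakdown into urea and runs mainly in periportal hepatocytes, partly in the mitochondrion and partly in the cytosol. Its first committed step, catalysed by CPS1, needs N-acetylglutamate made by NAGS as an activator; ornithine and citrulline cross the inner mitochondrial membrane in opposite directions on carriers, and the later enzymes work in the cytosol. Transcription of the cycle genes is known to respond to glucagon and glucocorticoids, which raise amino acid breakdown in fasting. Ammonia that escapes the cycle is captured as glutamine by pericentral hepatocytes.

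None of the 9 genes passed the threshold, an adjusted p under 0.05 over all genes tested. The fit called 2 of 12705 genes, or 0.0157%, both higher in Tg livers: Retnla itself and Nnt, the mitochondrial transhydrogenase, neither of them in the cycle. The 9 genes were split, 5 higher and 4 lower in Tg livers, with a median log2 difference of 0.09, beside a median of 0.01 over all genes and 52.05% of all genes higher. That median of the 9 was 0.0441 without non-Tg 2, 0.0508 without Tg 5 and 0.0521 without non-Tg 1. The larger differences sat in the cytosolic part: Ass1 and Asl were higher in Tg livers by 0.60 and 0.45, while Cps1, Otc, Arg1, Nags, Glud1 and both carriers lay between -0.10 and 0.13. An unadjusted limma p under 0.05 was met by 2 of the 9 genes, Ass1 and Asl, and by 6.05% of all genes. The groups did not overlap for 1 of the 9 genes, which was higher in Tg livers, and for none on the lower side; among all genes 6.04% were higher and 5.64% lower without overlap.

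The promoter of Ass1 is shown because Ass1 had the largest difference of the 9 genes. RefSeq promoter windows of build GRCm38.p6 were at hand for 6 of the 9 measured genes, in 7 windows, since Slc25a15 had a pair of start sites; Cps1, Asl and Arg1 had no entry. The 250 bases before the Ass1 start lie at chr2:31470020-31470269 on the plus strand and read 5′ to 3′ with the E box in capitals as follows.
Ass1: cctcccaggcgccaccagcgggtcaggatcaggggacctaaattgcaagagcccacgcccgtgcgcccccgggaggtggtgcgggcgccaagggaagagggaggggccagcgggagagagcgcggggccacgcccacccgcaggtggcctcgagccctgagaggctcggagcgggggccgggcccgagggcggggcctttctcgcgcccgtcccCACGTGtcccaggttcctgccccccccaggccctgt

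The E box CACGTG, which reads the same on both strands, is bound by factors of the USF and MYC families. It was found in a window of 3 genes, Ass1, Slc25a13 and Slc25a15, that is in 3 of the 7 windows, and in 6.02% of all 32851 promoter windows of the same length. The 30 bases around each match are set side by side to show that the flanks differ.
Ass1: cgcgcccgtcccCACGTGtcccaggttcct
Slc25a13: cacagtctgagtCACGTGtcctggcccctc
Slc25a15: cgccctgccgcaCACGTGccgcggctccgg

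These stretches lie at chr2:31470222-31470251 on the plus strand, chr6:6217281-6217310 on the minus strand and chr8:22398337-22398366 on the minus strand. The E box began 36 bases before the start of Ass1, 125 before that of Slc25a13 and 77 before that of Slc25a15. The log2 differences between Tg and non-Tg livers were 0.60 for Ass1, 0.12 for Slc25a13 and -0.07 for Slc25a15, whose dimmer probe set gave 0.24. None of the 3 genes passed the threshold, and whether they differ from each other was not tested. Other motifs were searched on both strands. The core TGACG of the cAMP response element was found only in the Slc25a13 window (17.8% of all windows hold it), as was CCAAT (33.8%). The full element TGACGTCA, which contains that core (1.55%), the C/EBP motif TTGCNNAA (9.56%), the glucocorticoid receptor hexamer AGAACA (16.1%) and TATAAA (12.4%) were in none of the 7 windows. A match describes letters and says nothing of whether a factor was bound.

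Asl encodes argininosuccinate lyase, the cytosolic enzyme that splits argininosuccinate into arginine and fumarate. Its log2 signal was 14.27, 14.66 and 14.56 in Tg 5, Tg 6 and Tg 7, and 14.11, 13.86 and 14.18 in non-Tg 1, non-Tg 2 and non-Tg 3. Every Tg value lay above every non-Tg value, with a gap between Tg 5 and non-Tg 3 that was small beside the spread within either group. The means were 14.50 ± 0.20 and 14.05 ± 0.17 (SD, n = 3 each), a difference of 0.45 ± 0.12 (SE), or 1.36-fold (95% confidence interval 1.13 to 1.65). Before adjustment limma gave Asl a p of 0.00475 and after it 0.735, so Asl did not pass. Permuting the genotypes exactly, in all 20 ways, gave a 2-sided p of 0.1, the smallest that 3 mice against 3 allow. Asl had a single probe set, so no second one could be set against it.

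Ass1 encodes argininosuccinate synthase, which joins citrulline and aspartate in the step before Asl. Its probe set gave 10.37, 9.56 and 9.94 in Tg 5, Tg 6 and Tg 7, and 9.24, 9.05 and 9.78 in the 3 non-Tg mice. The groups overlapped: Tg 6 lay below non-Tg 3. The means were 9.96 ± 0.40 and 9.36 ± 0.38 (SD, n = 3 each), a difference of 0.60 ± 0.25 (SE), or 1.51-fold. The 95% confidence interval of that fold was 1.03 to 2.22. The limma adjusted p was 0.807 (0.0364 before adjustment), and the exact permutation p was 0.2. Without Tg 5 the difference was 0.39, more than 1.5 times smaller. Ass1 varied more between mice than the other genes, with a pooled SD within groups of 0.39, while the other 8 lay below the median of 0.27 over all genes.

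A far brighter probe set is annotated to both Ass1 and Gm5424, a transcribed pseudogene, and was not assigned to either. It read 15.74, 15.54 and 15.06 in Tg 5, Tg 6 and Tg 7, and 15.31, 14.79 and 14.86 in the non-Tg mice. Here too the groups overlapped, with Tg 7 below non-Tg 1. Its difference was 0.46 ± 0.18 (SE; 95% confidence interval 0.06 to 0.86), with a limma adjusted p of 0.848 over probe sets. The mice were not in the same order on the Ass1 probe set and on this one: Tg 5 was the highest on both, but Tg 6 came next on the shared probe set and behind both Tg 7 and non-Tg 3 on the other.

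Arg1, the arginase that releases urea and returns ornithine to the cycle, completed the cytosolic enzymes. Its log2 signal was 15.96, 15.82 and 15.89 in Tg 5, Tg 6 and Tg 7, and 15.73, 15.83 and 15.84 in the non-Tg mice. Tg 6 fell among the non-Tg values, and the whole spread over 6 mice was 0.23. The difference was 0.09 ± 0.07 (SE; limma adjusted p = 0.849), or 1.06-fold (95% confidence interval 0.95 to 1.19). Arg1 is also a marker of alternatively activated macrophages, in which Retnla itself is made. The 8 Kupffer cell and macrophage markers all had a higher mean in Tg livers, with 0 past the threshold and a median difference of 0.26, which was 0.58 within the arrays of lower and -0.41 within those of higher bioC, a control transcript. All 8 were highest in Tg 6, while Arg1 was lowest there among the Tg mice; their summed linear signal ran from 16511 to 42259 in Tg and from 20734 to 23849 in non-Tg livers. Of the 4 tested markers of alternative activation, 3 were higher in Tg livers, 0 passed, and their summed linear signal ran from 3172 to 5336 in Tg and from 3210 to 3611 in non-Tg livers. The part of macrophages in the Arg1 signal was not tested.

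**Figure D1:**
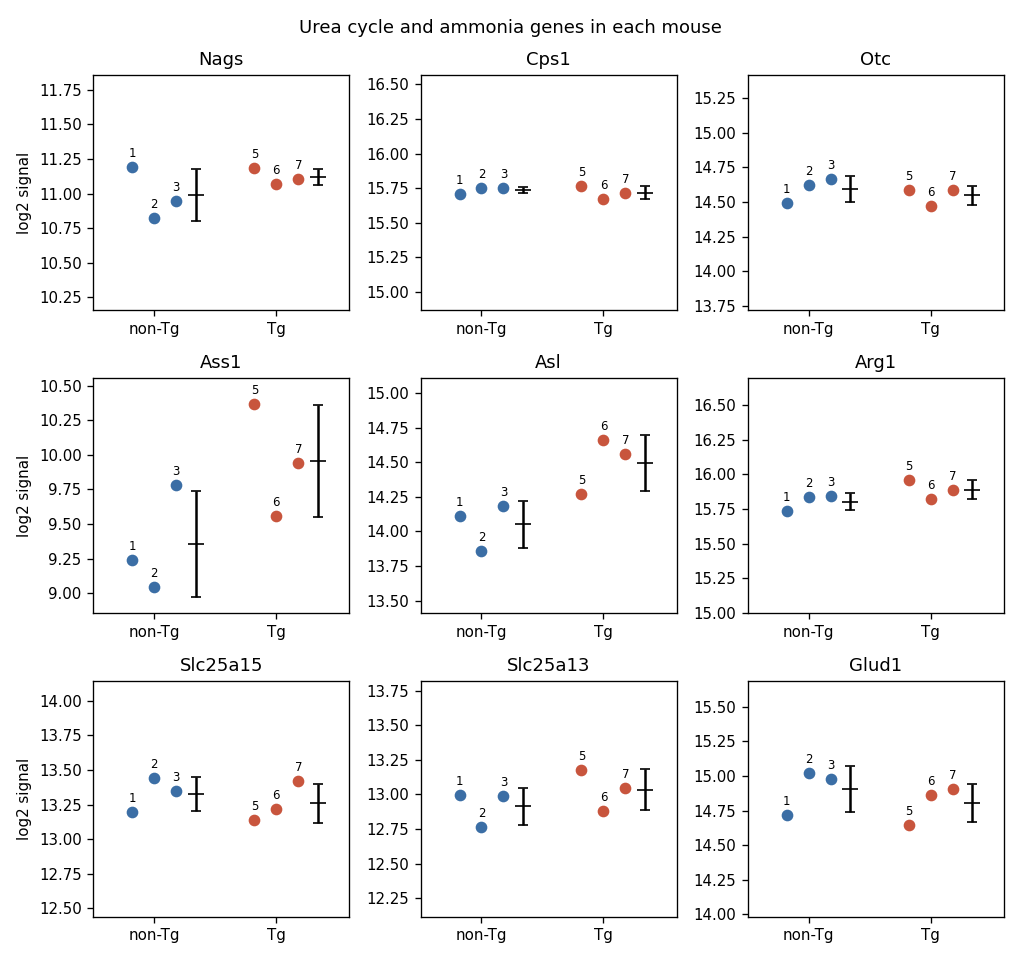
Log2 signal of the 9 measured genes in each mouse, numbered as in the labels, with non-Tg mice in blue and Tg mice in red; black marks show the group mean ± SD (n = 3), and every panel spans the same 1.7 log2 units. Asl is the panel in which all Tg points, 14.27 to 14.66, lie above all non-Tg points, 13.86 to 14.18, while the Cps1 points stay between 15.67 and 15.77.

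The mitochondrial enzymes differed less. Cps1, carbamoyl phosphate synthetase, which fixes ammonia as carbamoyl phosphate, read 15.77, 15.67 and 15.72 in Tg 5, Tg 6 and Tg 7, and 15.71, 15.75 and 15.75 in the non-Tg mice. The groups overlapped fully, and the 6 values spanned 0.09. The difference was -0.02 ± 0.07 (SE; limma adjusted p = 0.970), and its 95% confidence interval ran from 0.89-fold to 1.09-fold.

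Otc encodes ornithine transcarbamylase, the X-linked enzyme that makes citrulline. It read 14.59, 14.47 and 14.59 in Tg 5, Tg 6 and Tg 7, and 14.49, 14.62 and 14.67 in the non-Tg mice, with overlap. The difference was -0.05 ± 0.08 (SE; limma adjusted p = 0.925). The other Otc probe sets, less bright, gave -0.11 ± 0.11 and -0.29 ± 0.22 (SE), so all 3 pointed the same way, with Tg 6 the lowest mouse on each.

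Nags makes the activator of CPS1. Its values were 11.19, 11.07 and 11.11 in Tg 5, Tg 6 and Tg 7, and 11.19, 10.82 and 10.95 in the non-Tg mice. Non-Tg 1 was level with the highest Tg mouse, while the other two non-Tg mice lay below all Tg mice. The difference was 0.13 ± 0.13 (SE; limma adjusted p = 0.867).

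Glud1 encodes glutamate dehydrogenase, which releases ammonia from glutamate inside the mitochondrion. It read 14.65, 14.86 and 14.91 in Tg 5, Tg 6 and Tg 7, and 14.72, 15.02 and 14.98 in the non-Tg mice. Both groups held 1 low mouse, Tg 5 and non-Tg 1, and the groups overlapped. The difference was -0.10 ± 0.11 (SE; limma adjusted p = 0.873). A second Glud1 probe set gave -0.24 ± 0.10 (SE; limma adjusted p = 0.848 over probe sets), with a 95% confidence interval from -0.47 to -0.01, and its groups overlapped as well.

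The carriers link both compartments. Slc25a15, the ornithine carrier ORNT1, exchanges ornithine for citrulline. Its brighter probe set read 13.14, 13.22 and 13.42 in Tg 5, Tg 6 and Tg 7, and 13.20, 13.44 and 13.35 in the non-Tg mice, a difference of -0.07 ± 0.11 (SE; limma adjusted p = 0.911). Its dimmer probe set went the other way: 10.45, 10.60 and 10.42 in the Tg mice lay above 10.29, 10.22 and 10.25 in the non-Tg mice without overlap. That difference was 0.24 ± 0.13 (SE; limma adjusted p = 0.848 over probe sets). The direction of Slc25a15 thus depended on the probe set, and neither passed.

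Slc25a13, citrin, exports aspartate from the mitochondrion for the Ass1 step. It read 13.17, 12.88 and 13.05 in Tg 5, Tg 6 and Tg 7, and 12.99, 12.76 and 12.99 in the non-Tg mice. Tg 6 lay below non-Tg 1 and non-Tg 3. The difference was 0.12 ± 0.11 (SE; limma adjusted p = 0.863).

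**Figure D2:**
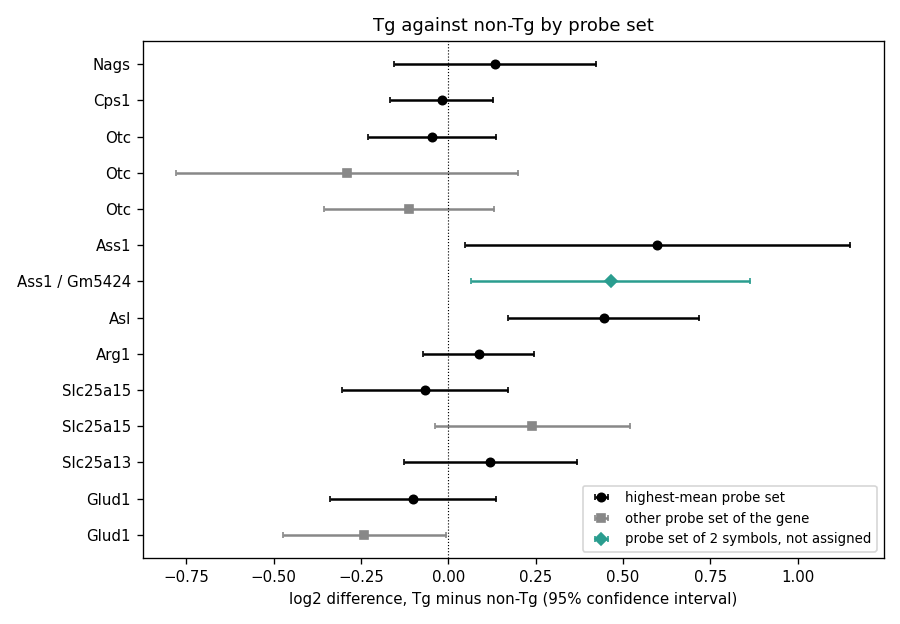
Log2 difference between Tg and non-Tg livers for each probe set of the 9 genes, with its 95% confidence interval from limma; circles stand for the gene, squares are its other probe sets, and the diamond is the probe set shared by Ass1 and Gm5424. The intervals of Asl (0.17 to 0.72) and Ass1 (0.05 to 1.15) lie above 0 before adjustment, while those of the other 7 circles hold 0, and the Slc25a15 probe sets fall on opposite sides.

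The precision differed between the genes. For 7 of the 9 the 95% confidence interval held 0 and lay within 0.5 log2 units of it on either side. For Cps1, Otc and Arg1 it reached no farther than -0.23 and 0.25. For Ass1 it ran up to 1.15. These are intervals for 1 gene at a time, without adjustment over the 12705 genes.

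No single mouse carried the pattern of all 9 genes. Tg 5 was the highest mouse for 4 genes, Cps1, Ass1, Arg1 and Slc25a13, and the lowest for 2, Slc25a15 and Glud1. Tg 6 was the highest for Asl and the lowest for Cps1 and Otc. Tg 7 was neither the highest nor the lowest for any gene, although 8 of its 9 values lay above the gene's own mean. Non-Tg 2 was the lowest for 4 genes, Nags, Ass1, Asl and Slc25a13, and the highest for Slc25a15 and Glud1. The median of the 9 centred values ran from -0.10 in non-Tg 1 to 0.05 in Tg 7.

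The arrays also fell into 2 sets by the signal of bioC, a bacterial control transcript added before hybridization. The mean bioC signal was 9.58 to 9.71 on the arrays of non-Tg 1, Tg 5 and Tg 6 and 10.98 to 11.27 on those of non-Tg 2, non-Tg 3 and Tg 7. Inside the lower and the higher set Asl differed by 0.35 and 0.54, Ass1 by 0.72 and 0.53, Arg1 by 0.16 and 0.05, and Slc25a13 by 0.03 and 0.17. On the probe sets that stand for the genes, these 4 kept their sign in both sets. The other 5 did not: Nags differed by -0.06 and 0.22, Cps1 by 0.01 and -0.03, Otc by 0.04 and -0.06, Slc25a15 by -0.01 and 0.02, and Glud1 by 0.04 and -0.10. Further probe sets read otherwise in part. The second Glud1 probe set differed by -0.23 and -0.12, and the dimmer Slc25a15 probe set by 0.24 and 0.19. The less bright Otc probe sets gave -0.25 and -0.13, and -0.14 and 0.05. The probe set shared by Ass1 and Gm5424 gave 0.34 and 0.24. Each of these values sets 1 mouse against 2. With the sets as a block Asl differed by 0.44 ± 0.13 (SE; limma adjusted p = 0.721) and Ass1 by 0.62 ± 0.27 (SE; limma adjusted p = 0.850). In that fit Glud1 and Slc25a15 were higher in the higher set than in the lower one, each by 0.22, which is larger than their genotype differences of -0.03 and 0.00.

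**Figure D3:**
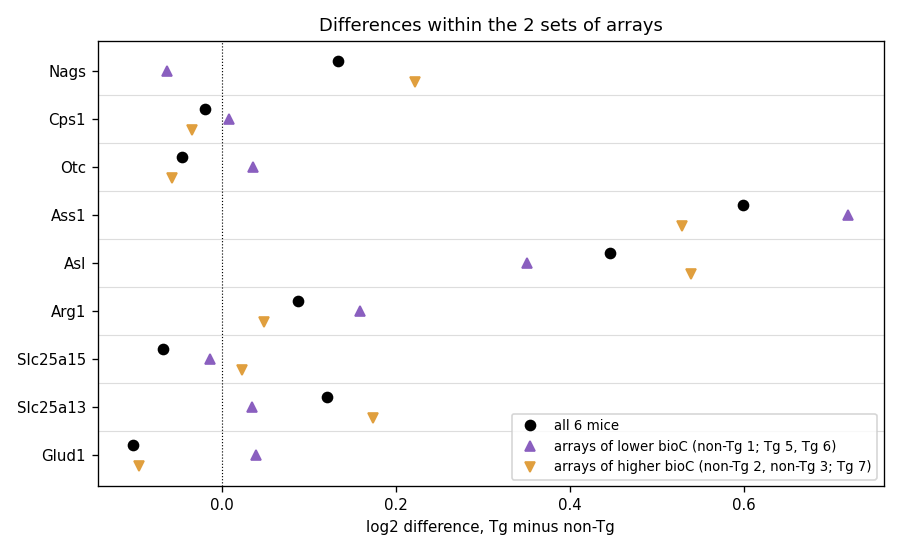
Log2 difference between Tg and non-Tg livers for the 9 genes over all 6 mice (circles) and inside the arrays of lower bioC (upward triangles, non-Tg 1 against Tg 5 and Tg 6) and of higher bioC (downward triangles, non-Tg 2 and non-Tg 3 against Tg 7). On the probe sets that stand for the genes, Asl and Ass1 stay right of 0.3 in all 3 readings. Nags, Cps1, Otc, Slc25a15 and Glud1 change sign between the sets. Other probe sets are not drawn.

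The genes around the cycle were read from 7 lists, which gave 67 tested genes, and 0 of them passed. With the array sets as a block 1 of them passed, Onecut1. Genes induced by glucagon or glucocorticoids had the highest median log2 difference of the 7 lists, 0.50. Of these, 8 of 9 were higher in Tg livers, beside 52.05% of all genes. Without overlap 3 were higher, Tat, Etnppl and Per1, beside 6.04% of all genes. The lists were chosen with earlier results of these data known, so this rank is a description and was not tested. Tat, tyrosine aminotransferase, a textbook target of both hormones, read 14.51, 15.33 and 15.10 in Tg 5, Tg 6 and Tg 7, and 13.74, 13.50 and 14.36 in the non-Tg mice. The lowest Tg mouse lay just above the highest non-Tg mouse, and the difference was 1.12 ± 0.24 (SE; limma adjusted p = 0.468). Inside the arrays of lower and of higher bioC Tat differed by 1.18 and 1.17. Pck1, the gluconeogenic enzyme made in periportal cells, differed by 0.49 ± 0.17 (SE; limma adjusted p = 0.779) with overlap, and G6pc, the last enzyme of glucose release, was the member on the lower side, at -0.19. The median of this list was 0.56 and 0.37 within the lower and higher sets.

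Glutamine and ammonia handling beside the cycle had 11 of 17 genes higher, a median of 0.21, and 3 higher and 1 lower without overlap. Asns, asparagine synthetase, which moves the amide nitrogen of glutamine onto aspartate, read 9.98, 8.01 and 7.41 in Tg 5, Tg 6 and Tg 7, and 6.86, 6.84 and 6.85 in the non-Tg mice. The non-Tg mice were nearly equal and the Tg mice far apart, for a difference of 1.61 ± 0.55 (SE; limma adjusted p = 0.779), of 2.14 and 0.56 within the lower and higher sets. Glul, glutamine synthetase, the pericentral enzyme that catches ammonia left by the cycle, read 12.29, 13.29 and 13.37 in the Tg mice and 13.33, 13.58 and 13.61 in the non-Tg mice. Tg 5 stood apart on the low side and Tg 7 overlapped the non-Tg mice, for a difference of -0.52 ± 0.24 (SE; limma adjusted p = 0.807). The amino acid carrier Slc38a3, which moves glutamine across the hepatocyte membrane, differed by 0.21 and the alanine aminotransferase Gpt2 by 0.26, both without overlap and with limma adjusted p of 0.807 and 0.787. The gene that was lower without overlap was Amdhd1, at -0.37 (limma adjusted p = 0.807).

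Arginine and ornithine metabolism beside the cycle had 7 of 12 genes higher and a median of 0.02. Arg2, the mitochondrial arginase, gave a dim and scattered signal of 5.80, 6.91 and 5.77 in Tg and 5.99, 3.79 and 5.91 in non-Tg livers. Oat, ornithine aminotransferase, which drains ornithine in pericentral cells, differed by -0.11, and Slc7a2, a carrier of arginine, by 0.11. Among bicarbonate, water and urea transport genes 2 of 9 were higher, with a median of -0.17; Car5a, the mitochondrial carbonic anhydrase that supplies bicarbonate to CPS1, differed by -0.10 and the aquaporin Aqp9 by -0.17. Of the 3 sirtuins that act on cycle enzymes, Sirt3, which deacetylates OTC, was lower without overlap: 11.91, 11.87 and 12.01 in Tg against 12.16, 12.24 and 12.48 in non-Tg livers, a difference of -0.37 ± 0.11 (SE; limma adjusted p = 0.735). Sirt5, which removes acyl groups from CPS1, differed by 0.13. The regulators had 8 of 14 genes higher and a median of 0.01. Onecut1, the liver transcription factor HNF6, had the largest difference of that list: it read 9.86, 9.69 and 8.53 in Tg 5, Tg 6 and Tg 7, and 11.01, 9.85 and 10.13 in the non-Tg mice. The groups overlapped narrowly, at Tg 5 and non-Tg 2, for a difference of -0.97 ± 0.37 (SE; limma adjusted p = 0.787). It was -1.23 and -1.46 within the lower and higher sets, and -1.35 ± 0.15 (SE; limma adjusted p = 0.0446) with the sets as a block. The other regulators lay closer to 0, with Crtc2 at -0.48, the glucagon receptor Gcgr at -0.21, the glucocorticoid receptor Nr3c1 at -0.27, Cebpb at 0.35 and Hnf4a at -0.01. Gcgr was the 1 regulator of the 14 whose groups did not overlap, and it was lower in Tg livers (limma adjusted p = 0.807). Among all genes 5.64% were lower without overlap. All 3 genes of pyrimidine synthesis, which draws on carbamoyl phosphate in the cytosol, were lower, with a median of -0.08. Apart from Asns and Tat, the genes of these lists were named after their values were seen, some for their role and some for the values themselves.

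**Figure D4:**
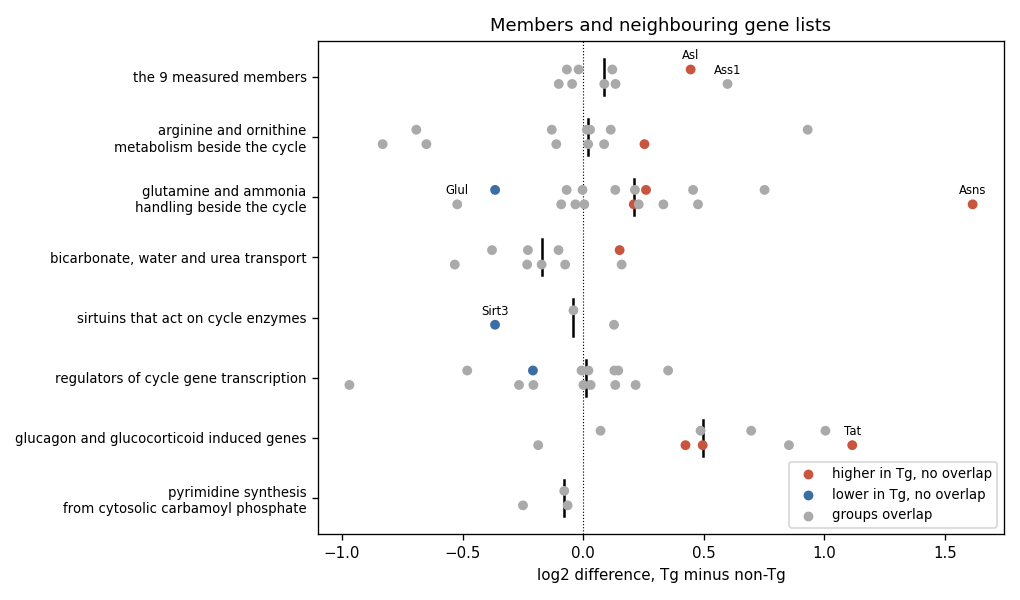
Log2 difference between Tg and non-Tg livers for each tested gene of the 9 members and of 7 neighbouring lists, 1 point a gene; red and blue points are genes whose groups do not overlap, grey points overlap, and the black bar is the list's median. The medians are 0.09 for the members and 0.50 for genes induced by glucagon or glucocorticoids, and 0 of the points passed the adjusted threshold without a block. With the array sets as a block Onecut1 passed, as 1 of 4 genes among all 12705.

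Because the cycle is zoned and bulk liver was measured, fewer cells of a type and less RNA per cell cannot be told apart. Periportal markers outside the cycle had 5 of 8 genes higher, a median of 0.11 and a summed linear signal of 162414 to 181990 in Tg and 147264 to 162778 in non-Tg livers. Their largest differences, Pck1 at 0.49 and Etnppl at 0.42, came from genes also listed as induced by glucagon or glucocorticoids. The zone lists share further genes with the lists above, Glul and Oat among them, so these readings are not separate. Pericentral markers had 6 of 11 higher, a median of 0.05 and a summed signal of 130548 to 146563 in Tg and 138092 to 145669 in non-Tg livers. Hepatocyte markers summed to 403963 to 452774 in Tg and 414369 to 435425 in non-Tg livers, with a median difference of 0.00 over 6 genes. Of the stellate cell markers 4 of 5 were lower, among them Lrat at -0.93 and Reln at -0.52 without overlap. Of the T and NK cell markers 3 of 4 were higher, with a median of 1.26 and Gzma at 1.39 without overlap. These markers were dim, and Nkg7 fell to 1.65 in non-Tg 2, so their log2 differences are uncertain. Their summed linear signal was 253 to 751 in Tg and 184 to 308 in non-Tg livers. The remaining marker lists had medians of 0.07 for sinusoidal endothelium, -0.48 for bile duct cells, 0.11 for B cells, 0.12 for neutrophils and 0.79 for erythroid cells. The erythroid median came from 2 genes, of which Slc4a1 was dim, at 4.49 in non-Tg 3. In all 12 marker lists 0 genes passed, and their part in the Asl and Ass1 differences was not tested.

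The genes whose pattern over the 6 mice lay nearest to Asl were sought among the 12696 tested genes outside the cycle, by the root-mean-square distance between log2 values centred on each gene's mean. The nearest were Cers4, a ceramide synthase, at a distance of 0.067, Cebpb, a transcription factor of the liver, at 0.068, and Aopep, an aminopeptidase, at 0.073. Their log2 differences were 0.42, 0.35 and 0.40, and none passed. Within the cycle the distance to Asl was smallest for Nags, at 0.235, and largest for Ass1, at 0.386. The values were centred but not scaled, so the distance also depends on how widely a gene spreads. Ass1 spanned 1.32 log2 units over the 6 mice and Nags 0.37, so this ranking does not compare the shape of the patterns alone. Cps1 lay nearest to Tpt1 and Tmem126a, each at 0.016, and Serpina1c, at 0.019, and within the cycle to Otc, at 0.048, and Arg1, at 0.059. Otc and Arg1 were also the genes of the cycle with the smallest spread after Cps1, at 0.20 and 0.23. All these patterns share the same 6 arrays and their scaling.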

How the data were processed

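For each array the authors deposited 45101 log2 signals, 1 for every probe set. GCOS is the software in the submitters' processing notes; which version, summary method and target intensity it ran with was not given in the labels. From the values, the trimmed mean of the linear signals was 500.0 on each array, so the authors' log2 values came already scaled, and they were used as deposited. The 64 control probe sets were left out. Of the others, those with a mean log2 signal above their 40th percentile, 5.63, were kept. Kept probe sets with several symbols or none were then left out, and the brightest of the rest stood for each of 12705 genes. The genotypes were then set against each other in limma 3.58.1 under R 4.3.3, by lmFit and a trended eBayes (2-sided, 9.61 moderated degrees of freedom), adjusted by Benjamini and Hochberg over all genes. An adjusted p for a further probe set comes from the same model over all kept probe sets with 1 symbol and the shared Ass1 probe set. Single genes also had an exact permutation test. No detection calls were used, and 6 arrays limit the precision. The procedure was tested on simulated data. Figures used matplotlib 3.10.9.

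The 10 genes, the neighbouring lists and the alternatives were chosen with earlier results of these data known. Named genes are the members, list genes past the threshold or without overlap at 0.5 log2 units or more, and zone or cell type markers; others are said to be chosen later. Gene names and promoters come from RefSeq (GRCm38.p6).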

Additional observations from a re-analysis of the deposited data

How the results depend on the processing

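Over the 17 alternatives, 0 of the 9 genes passed in any, and Asl and Ass1 stayed higher in Tg livers, at 0.35 to 0.56 and at 0.39 to 0.81. Asl had its lowest limma adjusted p, 0.249, without Tg 5 and its highest, 0.996, without non-Tg 2; for Ass1 these were 0.544 without Tg 7 and 0.996 without non-Tg 2. With each array centred on its median, the median of the 9 genes moved from 0.09 to 0.0128, Arg1 to 0.01 and Cps1 to -0.09. Differences that changed sign were those of Cps1 without Tg 6 (0.0029; leaving out 1 mouse at a time gave -0.0426 to 0.0029) and of Slc25a15 with the mean of its probe sets (0.0863) or with the array sets as a block (0.00464). The count of all genes past the threshold was 2, and became 4 after adding 16 to the linear signals and 6 after adding 64, 5 with median centring, 4 with robust variances and 4 with the block. The block also brought Onecut1 past the threshold (limma adjusted p = 0.0446). Leaving out 1 mouse moved small differences by over 1.5 times: Nags gave 0.0522 (without non-Tg 2) to 0.236 (without non-Tg 1), Slc25a13 0.0441 (without non-Tg 2) to 0.197 (without Tg 6), Arg1 0.0521 (without Tg 5 or non-Tg 1) to 0.120 (without Tg 6), Glud1 -0.198 (without non-Tg 1) to -0.022 (without Tg 5), Otc -0.0971 (without non-Tg 1) to -0.0063 (without Tg 6), and Slc25a15 -0.147 (without Tg 7) to -0.0089 (without Tg 5). The number of the 9 genes higher in Tg livers was 5 or 6 throughout. The replicate numbers of the groups are not shared, so no pairing was fitted. With 3 mice a group, a gene that did not pass is not shown to be unchanged.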

Other observations

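Asl put the 6 mice in the same order as Tat did: non-Tg 2 lowest, then non-Tg 1, non-Tg 3, Tg 5, Tg 7 and Tg 6. This order was shared by 20 of the 12705 tested genes, Asl included, or 0.157%, and Tat was the single gene of the neighbouring and marker lists among them. Because 6 mice can be ordered in many ways, any given order falls to a small share of genes. The small share here thus does not by itself make the match rare. The match was noticed after the values were seen and is given as a description.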
